A study of Mus musculus with 4 samples.

Results

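Tissue-resident follicular helper T cells, named TR-TFH in the deposited cluster assignment, were 1535 of the 5080 intestinal CD4+ T cells profiled by scRNA-seq. They were taken as all cells that the authors assigned to that cluster, and were set against the cells of the 7 other clusters within each condition. Small intestines of mice aged 7 to 8 months, on a C57BL/6 background, had been sorted for CD4+ T cells positive for YFP. In these mice a Cre driven by Il17a switches on YFP and thereby marks, permanently, cells that have expressed Il17a at some time. All groups carried the Il-17a-CRE allele and the YFP reporter. The group named TGFβR-KO (KO) carried floxed alleles of Tgfbr2 as well, the group named TGFβR-CA (CA) carried instead a Tgfbr1 transgene with constitutive activity, silent until Cre removes a stop cassette, and the TGFβR-WT (WT) group had neither. KO and CA were 1 sample each and WT was 2, and each sample was a pool of mice of which the numbers and sexes per pool are not given in the sources used here. The alleles were therefore changed only after a cell had switched on Il17a, and a cell that never did was not sorted. The study asked what becomes of intestinal Th17 cells when their TGFβ signaling is lost or forced.

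Follicular helper T cells (TFH cells) are CD4+ T cells that enter B cell follicles through the chemokine receptor CXCR5, depend on the transcriptional repressor BCL6, carry PD-1 (Pdcd1) and support germinal centers with IL-21 and CD40 ligand. T cells kept in tissues are commonly marked by CD69, the integrin αE (Itgae) and low S1PR1 and KLF2, which otherwise allow exit from tissue. TCF-1 (Tcf7), LEF-1, SLAMF6, CCR7 and the IL-7 receptor are associated with long-lived or less differentiated T cells.

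The deposited values carried the authors' depth correction, so the level of a gene is given here as corrected UMIs (unique molecular identifiers, 1 per captured RNA molecule) per 10000, summed over the cells of a group. WT cells could not be assigned to the 2 WT samples, and were pooled, but the endings of the cell names divided them into a larger set of 709 cells and a smaller set of 298, whose distance served as a measure of spread. With 1 sample of KO and of CA, and with clusters that were drawn from the same genes, no test was made. A gene was called higher or lower by size alone, at a ratio of at least 1.5 in KO, in pooled WT and in CA, after 0.1 per 10000 was added to each level and among the 7490 genes with at least 200 corrected UMIs.

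The share of TR-TFH cells was 17.4% in KO (519 of 2975 cells, exact 95% interval 16.1–18.9%), 46.1% in the larger WT set (327 of 709, 42.4–49.9%), 44.6% in the smaller WT set (133 of 298, 38.9–50.5%) and 50.6% in CA (556 of 1098, 47.6–53.6%). The KO share lay below those of both WT sets and the CA share just above the upper bounds of both, and these intervals cover counting error only. The shares add to 100% over clusters and sorting, so a smaller share does not say that fewer such cells were present.

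Several facts about the libraries touch these cells. According to the methods, KO was run with WT in 1 batch and CA with WT in another. Within TR-TFH cells Xist, the female-specific RNA of X inactivation, was at 0 in KO and in the larger WT set, at 10.2 per 10000 in the smaller WT set and at 4.81 in CA, so the sets also differed in the sex of the mice, and of the comparisons across conditions only that of KO with the larger WT set was between sets alike in Xist. Tgfbr2 was at 1.22 in KO TR-TFH cells against 1.83, 1.68 and 1.79 in the larger WT set, the smaller WT set and CA. Tgfbr1 was at 0.641 in CA TR-TFH cells, between the larger WT set at 0.339 and the smaller at 2.04, so conditions are called here by the labels of the cells. TR-TFH cells had fewer genes detected than the other clusters, with medians of 1328 against 1525 in KO, 1436 against 1611 in WT and 1498 against 1641 in CA. Only 3 of the 1535 cells shared a barcode with a cell of another set.

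The 5 genes given as markers of the cluster were examined first. Rflnb (refilin B, which binds the actin cross-linker filamin, chr11:76019194-76027782 in GRCm38) was at 5.05 per 10000 in KO TR-TFH cells, 5.03 in the larger WT set, 5.42 in the smaller WT set and 4.53 in CA. In the other clusters together it was at 1.02, 1.07, 1.33 and 1.41, so that the counting intervals of its levels did not overlap in any set, and the ratios were 4.61 in KO, 4.19 in WT and 3.07 in CA. It was the gene with the greatest ratio by the least favourable of the 3 conditions, and TR-TFH cells held its highest level of all clusters in each condition.

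Gpr183 (chr14:121952551-121965195) encodes EBI2, an oxysterol receptor that draws lymphocytes to the outer follicle and, in the gut, to lymphoid follicles. It was at 7.05 in KO, 8.52 in the larger WT set, 4.52 in the smaller WT set and 5.31 in CA, against 3.07, 3.08, 4.01 and 2.92 in the other clusters. Its ratio was 2.25 in KO, 2.10 in WT and 1.79 in CA, but the WT value came from the larger set, at 2.71, and in the smaller set it was only 1.13, with overlapping counting intervals (3.97–5.13 and 3.55–4.52). Pre-tumorigenic cells came close to TR-TFH cells in Gpr183 in each condition, at 6.03 in KO, 7.03 in WT and 4.95 in CA.

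Slamf6 (chr1:171917515-171953170), a homotypic receptor of the SLAM family that signals between T and B cells, was at 2.44 in KO, 3.28 in the larger WT set, 2.94 in the smaller and 2.16 in CA, against 0.871, 1.004, 1.14 and 1.08 in the other clusters. Tcf7 (chr11:52252371-52283014), whose product TCF-1 acts upstream of BCL6 in early TFH differentiation, was at 1.62, 2.61, 2.24 and 3.40 in the same order, against 0.765, 1.01, 0.943 and 1.71. Both genes were higher in TR-TFH cells than in the other clusters together in each of the 4 sets, by ratios of 1.91 to 3.06 for Slamf6 and 1.94 to 2.44 for Tcf7. Slamf6 was not called higher than in GC-TFH or in migratory cells, and Tcf7 not than in GC-TFH cells. In CA, Tcf7 was detected in 57.0% of GC-TFH cells against 66.5% of TR-TFH cells. In the smaller WT set Slamf6 was detected in 81.25% of 16 migratory cells against 62.4% of TR-TFH cells.

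Il7r (chr15:9505788-9530176), the receptor chain for the survival cytokine IL-7, behaved differently. It was at 5.42 in KO TR-TFH cells, 7.45 in the larger WT set, 5.87 in the smaller WT set and 4.50 in CA, while the other clusters held 7.43, 5.22, 2.39 and 1.67. The ratio was therefore 0.734 in KO, 1.60 in WT and 2.61 in CA, and Il7r was not among the genes called in all 3. With the other clusters weighted alike, its log2 ratio was 0.03 in KO, 0.49 in WT and 0.54 in CA, against -0.45, 0.68 and 1.38 as reported, so that the lower level in KO was not seen with that weighting. The makeup of the other clusters differed between conditions, since migratory cells, in which Il7r was at 13.3 in KO, 14.4 in WT and 8.10 in CA, were 831 of 2456 other cells in KO, 89 of 547 in WT and 52 of 542 in CA.

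Per cell, the 5 markers were spread widely. At least 3 of them were detected in 64.0% of TR-TFH cells in KO, 71.7% in WT and 62.2% in CA, against 24.0%, 24.1% and 20.5% of the cells of other clusters, and against 40.6%, 59.6% and 46.2% of migratory cells. Rflnb was detected in 68.2%, 68.7% and 61.7% of TR-TFH cells of KO, WT and CA, and, after every cell was thinned to 2900 corrected UMIs, in 61.8%, 65.0% and 54.3%, against 18.6%, 23.0% and 24.0% of other cells thinned alike. No single marker was thus detected in every TR-TFH cell, and the same genes were found in a minority of other cells.

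Across all genes, 35 were called higher in TR-TFH cells than in the other clusters in all 3 conditions, which was 0.467% of the genes compared, and 263 were called lower, 3.51%. Of these, 31 and 211 reached the ratio in each WT set by itself. The median gene was lower in TR-TFH cells, by -0.09 in KO, -0.10 in WT and -0.11 in CA on the log2 scale, while ribosomal protein transcripts took up a median of 31.2%, 24.1% and 24.7% of a TR-TFH cell against 24.9%, 20.1% and 19.4% of another cell. With ratios centred on the median gene the split was 62 higher to 208 lower, so that calls in the higher direction went from 11.7% to 23.0% of all calls, and with differences of the mean deposited log values past 0.1 it was 92 to 173, or 34.7%. With a ratio of 2, 5 genes were higher and 105 lower. Lower levels thus outnumbered higher ones under each of these ways of scaling. The minimum of 200 corrected UMIs was summed over all cells, of which 3545 lay in the other clusters. A gene high only in TR-TFH cells therefore had fewer cells in which to reach it. Minimums of 50 and 1000 gave 40 to 274 and 16 to 135, but the part of this filter in the split was not tested.

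The genes called higher included transcription factors and surface receptors of less differentiated T cells. Ccr7, the receptor that takes T cells to the T zones of lymphoid organs, was at 0.410 in KO, 0.383 in the larger WT set, 0.411 in the smaller and 0.325 in CA, against 0.0492, 0.137, 0.133 and 0.105 in other clusters. Lef1, the partner of TCF-1, was at 1.71, 2.20, 1.85 and 1.55 against 0.748, 0.932, 0.781 and 0.810. Izumo1r, which encodes folate receptor 4, a protein of TFH and regulatory T cells, was at 0.918, 1.27, 0.897 and 1.29 against 0.115, 0.390, 0.192 and 0.596. These genes were higher in every set. Myb, a factor of progenitor and long-lived T cells, was at 0.503, 0.873, 0.505 and 0.499 against 0.0942, 0.383, 0.251 and 0.246. Against single clusters, Ccr7 and Lef1 were called higher than in GC-TFH cells but not than in migratory cells. Izumo1r and Myb were called higher than in migratory cells but not than in GC-TFH cells.

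Other genes of this group have varied or less known roles. Actn1, encoding the actin cross-linker α-actinin-1, was at 0.477 in KO, 1.35 in the larger WT set, 1.18 in the smaller and 0.847 in CA, against 0.174, 0.361, 0.442 and 0.396. Asap1, which encodes an activator of ARF GTPase hydrolysis, was at 1.69, 1.94, 2.39 and 1.89 against 0.686, 0.679, 1.05 and 0.828. St8sia1, encoding a sialyltransferase of ganglioside synthesis, and the solute carrier gene Slc45a4 were also called, with ratios of 1.78 to 1.92 and 1.78 to 2.97 over the 3 conditions. The remaining 20 leading genes were Prag1, Aff3, Dennd2d, H2-Q2, Gm35363, B630019A10Rik, A630023P12Rik and E130102H24Rik, and H2-Q2 is uncertain since it is 1 of several near-identical class I genes.

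**Figure D1:**
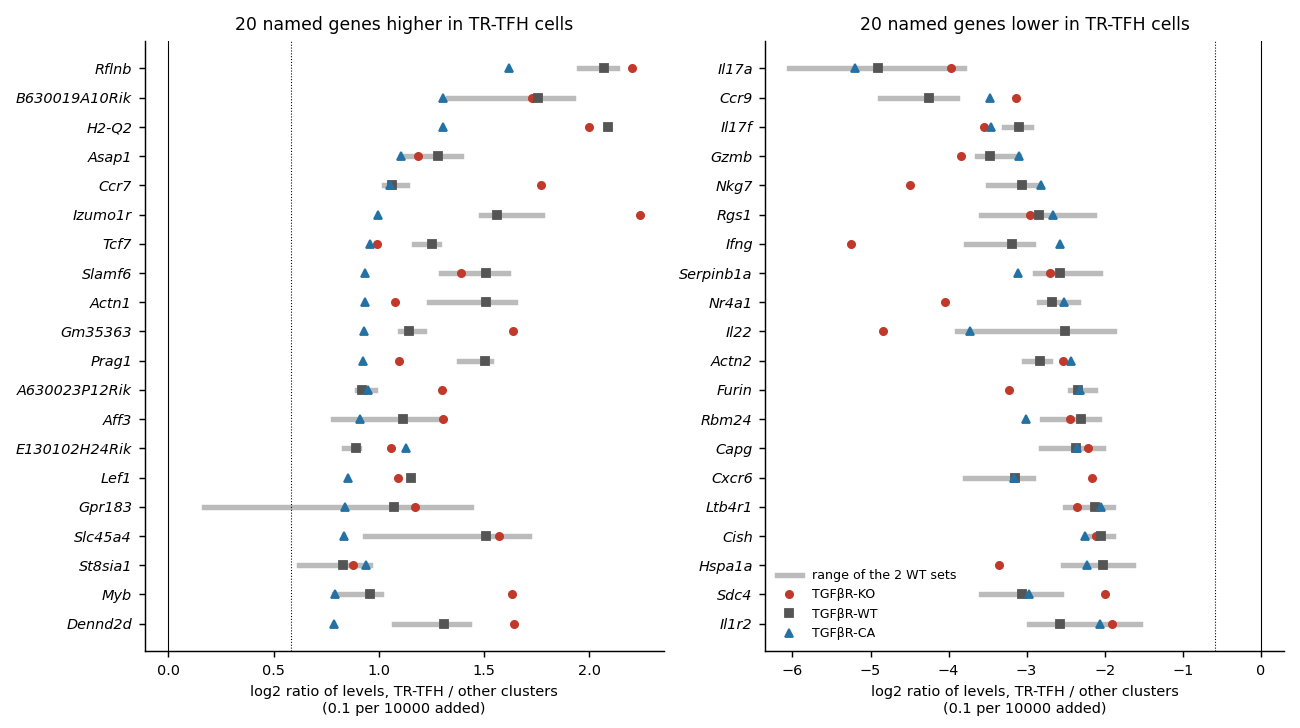
Log2 ratio of the level in TR-TFH cells to that in all other clusters, for the 20 leading genes in each direction (left, higher and right, lower). Red circles are TGFβR-KO, grey squares pooled TGFβR-WT and blue triangles TGFβR-CA, grey bars join the 2 WT sets and dotted lines mark a ratio of 1.5. All points lie past the dotted line by the rule that chose them, while the bar of Gpr183 reaches below it. Nkg7 was at 0 in TR-TFH cells of CA and of the smaller WT set, so the place of that point and that end of its bar are set by the 0.1 that was added. Ifng was at 0 in the smaller WT set, so the same holds for that end of its bar. Il17a, Il17f, Gzmb, Ifng and Nr4a1 lay below 0.1 in TR-TFH cells of every set, so their places also depend strongly on the 0.1.

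For 26 of the 35 genes, TR-TFH cells had the highest level of all clusters with at least 20 cells in all 3 conditions, where these clusters numbered 8 in KO, 6 in WT and 5 in CA. Over all 7490 genes, TR-TFH cells were highest in 593 in KO, 701 in WT and 674 in CA. Lef1 and Actn1 were highest in TR-TFH cells of KO and WT but in migratory cells of CA, and Gm14718 was highest in GC-TFH cells throughout. Since clusters were built from such genes, this describes them and supports nothing further.

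Genes called lower were led by the cytokine for which the cells had been marked. Il17a was at 0.0519 per 10000 in KO TR-TFH cells, 0.0713 in the larger WT set, 0.0561 in the smaller WT set and 0.0275 in CA, from 10, 8, 3 and 6 corrected UMIs. The other clusters held 2.28, 2.28, 10.2 and 4.57. Il17a was detected in 1.93% of TR-TFH cells of KO, 1.74% of WT and 1.08% of CA, below the 8.22%, 25.2% and 23.2% of other cells. In GC-TFH cells these shares were 7.86%, 6.53% and 3.42%, and in migratory cells 2.17%, 7.87% and 7.69%. Il17a was called lower than in GC-TFH cells, but not than in migratory cells. TR-TFH cells, although sorted for past Il17a expression, thus held few Il17a transcripts in any condition.

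Other genes of this direction encode cytokines and a granule enzyme of effector cells. Il17f was at 0.0207 in KO, 0.00891 in the larger WT set, 0.0561 in the smaller WT set and 0.0183 in CA, against 1.31, 0.737, 1.43 and 1.20. Ifng, the defining cytokine of Th1 cells, was at 0.0363, 0.0445, 0 and 0.0183, against 5.11, 0.997, 1.27 and 0.605. Gzmb, encoding granzyme B of cytotoxic granules, rested on 3 corrected UMIs in KO, 3 in WT and 1 in CA, with levels of 0.0156 (exact Poisson 95% interval 0.00321–0.0455), 0.0181 (0.00373–0.0529) and 0.00458 (0.000116–0.0255), against 1.56, 1.21 and 0.796. None of these effector genes reached 0.1 per 10000 in TR-TFH cells of any set. Il17f, like Il17a, was not called lower than in migratory cells. Ccr9, the receptor for the small-intestinal chemokine CCL25, was at 0.337, 0.241, 0.187 and 0.343 against 3.73, 4.98, 8.31 and 4.80. It was not called lower than in GC-TFH cells. There it was detected in 12.3% of cells in KO, 4.02% in WT and 4.18% in CA, against 6.74%, 3.70% and 4.50% of TR-TFH cells.

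The sequences upstream of 2 cytokine genes, called lower, are shown so that they can be read beside those of 2 of the given marker genes, called higher. Each is the 250 bases before a RefSeq start in GRCm38.p6, given on the strand of the gene, and capitals mark a match to the AP-1 motif TGANTCA or to the TCF and LEF motifs CTTTGAA or CTTTGAT, searched on both strands.
Rflnb, chr11:76027783-76028032, minus strand: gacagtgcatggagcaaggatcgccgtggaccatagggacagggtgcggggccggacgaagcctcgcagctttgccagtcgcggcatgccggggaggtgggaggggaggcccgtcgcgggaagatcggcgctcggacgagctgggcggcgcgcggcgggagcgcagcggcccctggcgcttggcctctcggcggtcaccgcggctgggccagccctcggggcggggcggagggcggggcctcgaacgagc
Gpr183, chr14:121965194-121965443, minus strand: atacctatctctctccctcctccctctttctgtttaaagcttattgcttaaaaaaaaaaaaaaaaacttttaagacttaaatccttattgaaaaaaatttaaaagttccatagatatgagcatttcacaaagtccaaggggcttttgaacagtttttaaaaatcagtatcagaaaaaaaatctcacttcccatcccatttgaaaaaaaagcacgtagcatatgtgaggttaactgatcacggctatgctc
Il17a, chr1:20730655-20730904, plus strand: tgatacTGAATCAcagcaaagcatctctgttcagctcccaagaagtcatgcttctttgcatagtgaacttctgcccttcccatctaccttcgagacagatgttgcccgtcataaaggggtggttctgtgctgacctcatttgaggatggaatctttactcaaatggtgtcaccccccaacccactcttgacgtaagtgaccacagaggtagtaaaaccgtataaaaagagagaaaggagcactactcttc
Il17f, chr1:20784271-20784520, minus strand: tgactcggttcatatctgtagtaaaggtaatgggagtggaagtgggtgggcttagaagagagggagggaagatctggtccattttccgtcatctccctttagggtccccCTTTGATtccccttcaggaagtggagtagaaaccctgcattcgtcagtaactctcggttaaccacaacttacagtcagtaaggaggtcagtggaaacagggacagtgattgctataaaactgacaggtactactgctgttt
The Il17a window held 1 AP-1 match and the Il17f window 1 TCF and LEF match, whereas these letters were not found in the windows of Rflnb and Gpr183. Over 42 windows of 28 genes called higher, 9.52% held the AP-1 motif and 2.38% the TCF and LEF motifs. Over 248 windows of 196 genes called lower these shares were 7.26% and 5.65%, and over 7481 windows of all genes compared they were 3.89% and 5.09%. A match is a run of letters and not a measured site.

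Gene lists were then read as wholes, by how many members were called among those with at least 200 corrected UMIs. Of 18 such genes of the list for stem-like and quiescent T cells, 5 were higher (Tcf7, Lef1, Ccr7, Slamf6 and Gpr183) and Klf2 was lower, with a list median of 0.38 in KO, 0.47 in WT and 0.33 in CA on the log2 scale. The share higher, 5 of 18, stood beside 0.467% of all genes, but this list held 4 of the cluster's 5 given markers. Of 21 genes of the follicular helper list (23 before the minimum), Slamf6 was higher and Slamf1 and Batf were lower. Cxcr5, Bcl6 and Pdcd1 were not called, and for Cxcr5 the ratios to all other clusters, GC-TFH cells included, were 2.12 in KO, 0.993 in WT and 0.954 in CA.

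The lists of effector cells were lower than in the other clusters together, where 3.51% of all genes were called lower. Of 17 Th17 genes 13 were called lower and 0 higher, among them Il22, Il23r and Rora. Of 17 Th1 genes 10 were lower, including Tbx21, Ifng, Ccl5 and Tnf, and of 9 genes of cytotoxic granules and NK receptors 6 were lower, including Gzma, Gzmb, Nkg7 and Fasl. Of 16 genes induced early by the T cell receptor 9 were lower, including Nr4a1, Nr4a3 and Egr3. Their list medians ran from -0.80 to -1.83, against medians near -0.1 over all genes. Against GC-TFH cells alone, 8 Th17, 5 Th1, 1 cytotoxic and 11 early genes of these lists were lower and 1 Th1 gene higher. Against migratory cells alone, 8, 5, 1 and 1 were lower and 1 Th17 gene higher. The lower levels of cytotoxic genes were thus seen mainly against the remaining clusters. Of 9 genes of the regulatory T cell list, 4 were lower than in the other clusters together (Il2ra, Ctla4, Tnfrsf4 and Capg) and 1, Izumo1r, was higher. In that list 4 were lower than in GC-TFH cells and 0 higher, and 1 was lower than in migratory cells and 3 higher.

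Genes used to mark residence in tissue went partly against the name of the cluster. Of 18 genes of the list for adhesion and residency, 11 were lower than in the other clusters and 0 were higher. Over all genes 3.51% were called lower and 0.467% higher. Cd69 was at 0.358 in KO, 0.303 in the larger WT set, 0.411 in the smaller and 0.311 in CA, against 2.08 in KO, 2.06 in pooled WT and 1.37 in CA. Itgae was at 0.0207, 0.0267, 0.0748 and 0.0366, against 0.156, 0.529 and 0.132. Both genes were lower in TR-TFH cells than in the other cells of each condition. Itgb7, Runx3, Prdm1, Rgs1 and Ahr were lower as well. Cd69 was also called lower than in GC-TFH cells alone, but not than in migratory cells, and Itgae was not called against either. Itgae was detected in 0.771% of TR-TFH cells in KO, 0.870% in WT and 0.899% in CA, against 0.629%, 2.01% and 0% of GC-TFH cells. Low Itgae was thus shared with GC-TFH cells. Klf2, low in resident T cells, was lower than in the other clusters, at 1.75, 0.757, 0.411 and 0.407 against 7.46, 2.37 and 1.32. In this Klf2 went with the name, but it was called higher than in GC-TFH cells alone. It was detected in 82.2% of migratory cells in KO, 66.3% in WT and 73.1% in CA, against 23.7%, 12.4% and 8.99% of TR-TFH cells. How far migratory cells made up the contrast with the other clusters was not tested. S1pr1, also low in resident T cells, was not called, at 0.773 in KO, 0.694 in pooled WT and 0.517 in CA against 1.23, 0.907 and 0.423. The name TR-TFH is used here as the deposited label.

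Genes that move with handling or with RNA content shifted alongside these lists. Of 12 AP-1 and dissociation genes, 7 were lower in TR-TFH cells than in the other clusters, including Fos, Junb and Dusp1. Of 12 heat shock genes 4 were lower, including Hspa1a and Hspa1b, where 3.51% of all genes were called lower. Against GC-TFH cells 1 AP-1 and 4 heat shock genes were lower, and against migratory cells 0 of either list. Of 17 cell cycle genes 5 were lower than in the other clusters, which include a cluster of cycling cells, among them Mki67 and Top2a. None of the 17 was called against GC-TFH cells, and against migratory cells Top2a was lower and Tuba1b higher. Of 76 cytosolic ribosomal protein genes 0 were called, yet their median was 0.29 in KO, 0.28 in WT and 0.30 in CA. The part of these shifts in the effector lists was not tested. Among markers of other cells, Igkc and Cd8a were at 0 in TR-TFH cells of every set, but also in the other clusters of WT and CA. Cd8b1 was at 0.0467 in KO, 0.0302 in WT and 0.0412 in CA, against 0.0345, 0.0145 and 0.0228. The 11 measured B and plasma cell genes, led by Ighm, summed to 1.31 to 2.36 per 10000 over the 4 sets, against 1.27 to 4.46 in other clusters. Their sum was higher in TR-TFH cells of KO, at 2.36 against 1.32, and of the smaller WT set, at 1.31 against 1.27. It was lower in the larger WT set and in CA. The 5 measured myeloid genes summed to 1.67 to 2.04 in TR-TFH cells against 1.93 to 2.37, nearly all from Cst3, the 10 epithelial genes to at most 0.229 against at most 0.359, the 7 γδ T cell genes to at most 0.224 against at most 0.147, and the 5 genes of NK cells and ILC to 0.357 to 0.659 against 0.335 to 2.54. The 7 CD4 T cell markers summed to 112 to 124 against 91.8 to 108.

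**Figure D2:**
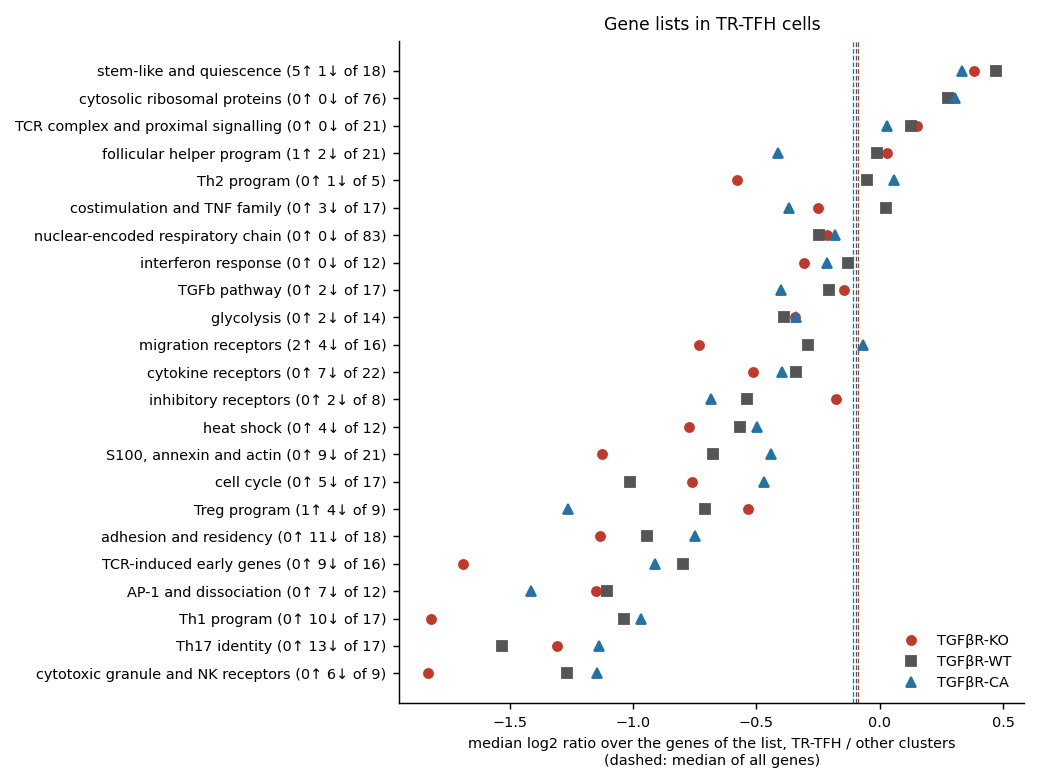
Median log2 ratio of TR-TFH cells to the other clusters over the genes of each list, with 1 point per condition and, after each name, how many genes were called higher and lower of those compared. Dashed lines are the medians of all genes. Lists of effector cells lie to the left of the dashed lines in all 3 conditions, and the stem-like list and the ribosomal proteins lie to the right.

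GC-TFH cells and migratory cells came next to TR-TFH cells in expression space. Among the 30 cells nearest to a TR-TFH cell in 20 principal components, 83.6% in KO, 91.1% in WT and 89.4% in CA were TR-TFH cells themselves, where these made up 17.4%, 45.7% and 50.6% of all cells. GC-TFH cells followed, with 5.17%, 5.91% and 8.23%, and migratory cells, with 8.25%, 2.01% and 1.49%. Their order thus differed between KO and the other conditions, in which migratory cells were few. Without all listed genes, TR-TFH neighbors still made up 79.8%, 87.6% and 85.9%. The clusters had been cut from these data, so this describes how far they mix.

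**Figure D3:**
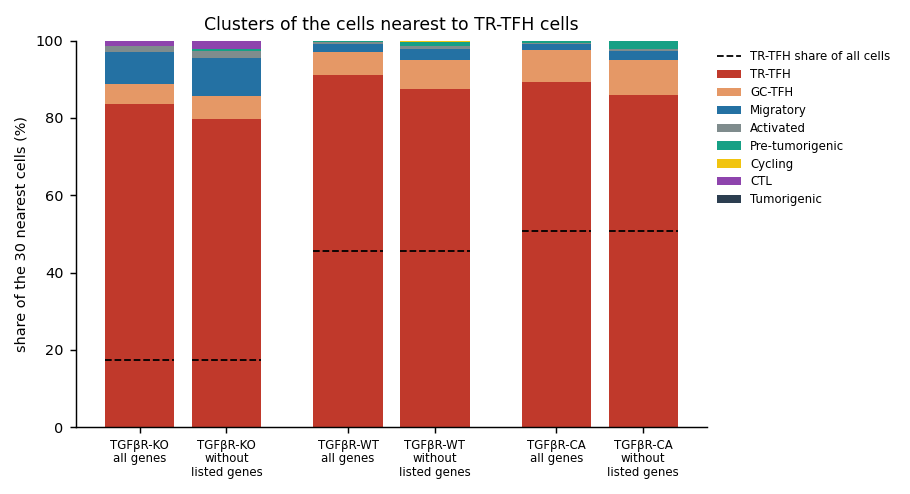
Share (%) of each cluster among the 30 nearest cells of TR-TFH cells, per condition, with all genes and without the listed genes. Dashed lines give the share of TR-TFH cells among all cells of that condition. Bars of TR-TFH cells reach from 79.8% to 91.1%, far above the dashed lines.

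Against GC-TFH cells, the cluster named for germinal center TFH cells, 55 genes were higher in TR-TFH cells in all 3 conditions (0.734%) and 267 lower (3.56%), of which 36 and 173 reached the ratio in each WT set. Centred on the median gene, the numbers were 104 and 165, so that calls in the higher direction went from 17.1% to 38.7%, and outside ribosomal protein genes they were 96 and 220, or 30.4% higher. Il7r led the genes that were higher, at 5.42 in KO TR-TFH cells, 7.45 in the larger WT set, 5.87 in the smaller and 4.50 in CA, against 0.674, 0.574, 1.32 and 0.336 in GC-TFH cells. Its ratios were 7.14, 7.68 and 10.6 in KO, WT and CA. Gpr183 was at 3.13, 2.28, 2.48 and 1.72 in GC-TFH cells and thus lower than in TR-TFH cells of every set.

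Of 16 migration receptors 4 were higher than in GC-TFH cells (Gpr183, S1pr1, Ccr7 and Gpr132) and Cxcr5 and Cxcr6 were lower, with list medians of 0.03 in KO, -0.01 in WT and 0.16 in CA, and of 18 genes of adhesion and residency Itga4 was higher and 3 were lower. S1pr1, the sphingosine 1-phosphate receptor for exit into lymph, was at 0.773 in KO, 0.846 in the larger WT set, 0.374 in the smaller and 0.517 in CA, against 0.309, 0.178, 0.248 and 0.0840 in GC-TFH cells. Klf2, the factor that maintains S1pr1, was at 1.75, 0.757, 0.411 and 0.407 against 0.503, 0.218, 0.166 and 0.140. Itga4, the α4 integrin of gut homing, was at 3.45, 4.18, 3.63 and 3.36 against 1.30, 2.14, 1.45 and 1.30. All 3 were higher in TR-TFH cells of every set, if narrowly for S1pr1 in the smaller WT set.

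Of the 21 genes of the follicular helper list, 10 were lower than in GC-TFH cells and 0 were higher, beside 3.56% and 0.734% of all genes. Cxcr5 was at 0.617 in KO TR-TFH cells, 0.909 in the larger WT set, 1.25 in the smaller and 1.18 in CA, against 1.64 in KO, 2.62 in pooled WT and 2.40 in CA in GC-TFH cells. Bcl6 was at 0.560, 0.739, 0.561 and 0.723 against 1.85, 2.22 and 1.89, and Pdcd1 at 0.809, 1.09, 1.87 and 2.24 against 4.42, 4.93 and 6.95. TR-TFH cells thus held less than GC-TFH cells of each, by ratios of 1.95 to 4.97. Il21, Tox, Ascl2, Cd200 and Pou2af1 were called lower too. So were 11 of the 16 genes induced early by the T cell receptor, among them Nr4a1, Egr1, Egr2, Cd69 and Myc, and Sostdc1, an antagonist of BMP and Wnt ligands, at 0.259 in KO, 0.615 and 1.08 in the WT sets and 1.14 in CA against 2.40, 4.91, 5.88 and 5.79.

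Against migratory cells, 106 genes were higher (1.42%) and 215 lower (2.87%) in all 3 conditions, 80 and 129 also in each WT set, of which the smaller held only 16 migratory cells. Here 8 of the 21 follicular helper genes were higher and 0 were lower. Cxcr5 was at 0.0152 in migratory cells of KO, 0.0887 of WT and 0.0932 of CA. It was detected in 0.602%, 3.37% and 3.85% of these cells, and in 19.1%, 28.7% and 33.6% of TR-TFH cells (16.6%, 23.5% and 27.3% after thinning to equal totals of corrected UMIs, against 0.481%, 3.37% and 3.85%). Izumo1r was at 0.0213, 0.0887 and 0.140 in migratory cells, well below its levels in TR-TFH cells. Bcl6, Pdcd1, Il21, Tox, Tox2, Pou2af1 and Il6st, a receptor chain for IL-6, were higher as well.

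Klf2 was at 10.5 in migratory cells of KO, 9.42 and 7.84 in the WT sets and 7.69 in CA, which was 5.72, 12.3 and 15.3 times the TR-TFH level in KO, WT and CA. S100a4, a calcium-binding protein of motile cells, was at 0.716, 0.463, 0.150 and 0.471 in TR-TFH cells against 11.9, 10.1, 1.92 and 4.10. Vim, encoding vimentin, was at 0.825, 0.748, 1.16 and 0.897 against 7.08, 5.65, 4.73 and 7.17. These 3 genes were lower in TR-TFH cells of every set. Of 21 S100, annexin and actin genes 12 were lower, and of 16 migration receptors 7 were lower (S1pr1, S1pr4, Cxcr6, Ccr4, Ccr6, Ccr9 and Gpr171) and Gpr183, Cxcr4 and Cxcr5 higher.

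Set against both clusters at once, TR-TFH cells were higher in 7 genes (Rflnb, Gpr183, H2-Q2, Slc45a4, St8sia1, Gm35363 and B630019A10Rik), out of the 55 and the 106. In 9 genes they lay between, above GC-TFH and below migratory cells, including Il7r, Klf2, S1pr1, Itga4 and Il18r1. In 17 they lay below GC-TFH and above migratory cells, including Cxcr5, Bcl6, Pdcd1, Il21, Il4 and Tox. In 20 they were lower than in both, including Ahr, Cxcr6, S100a4, S100a6 and Tnf. Both contrasts share the TR-TFH cells, so nothing is read from the size of these overlaps.

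**Figure D4:**
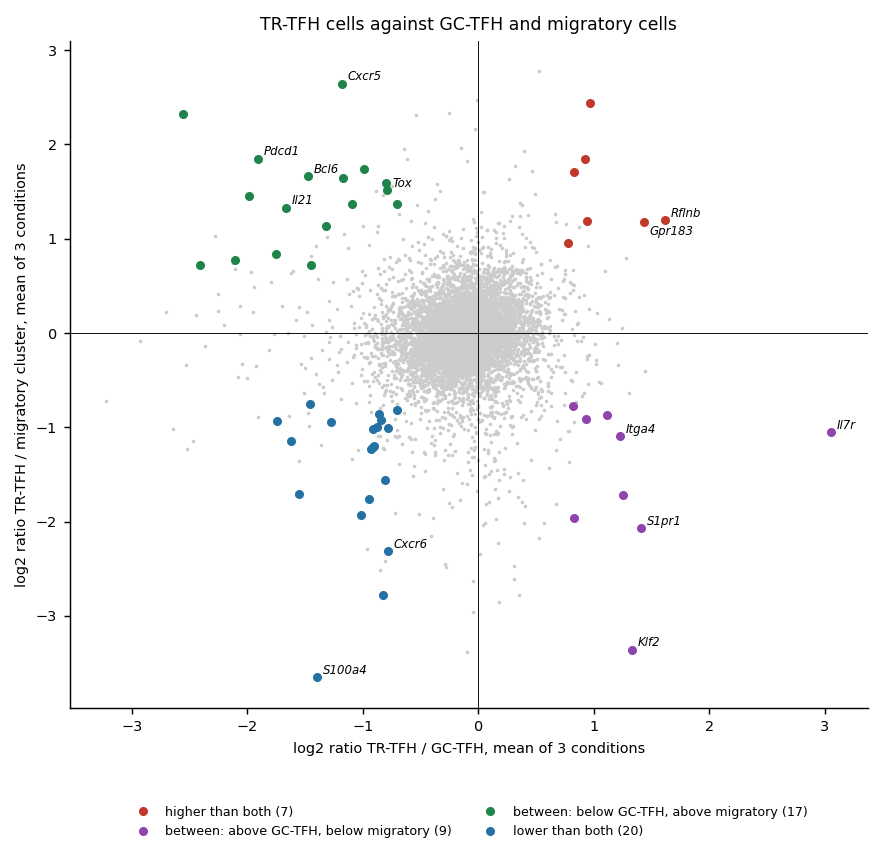
Each point is a gene, with the log2 ratio of TR-TFH to GC-TFH cells on the horizontal axis and of TR-TFH to migratory cells on the vertical axis, both as the mean of the 3 conditions. Colors mark the 7, 9, 17 and 20 genes called in all 3 conditions against both clusters. Il7r, Klf2 and S1pr1 lie at the lower right and Cxcr5, Bcl6 and Pdcd1 at the upper left.

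**Figure D5:**
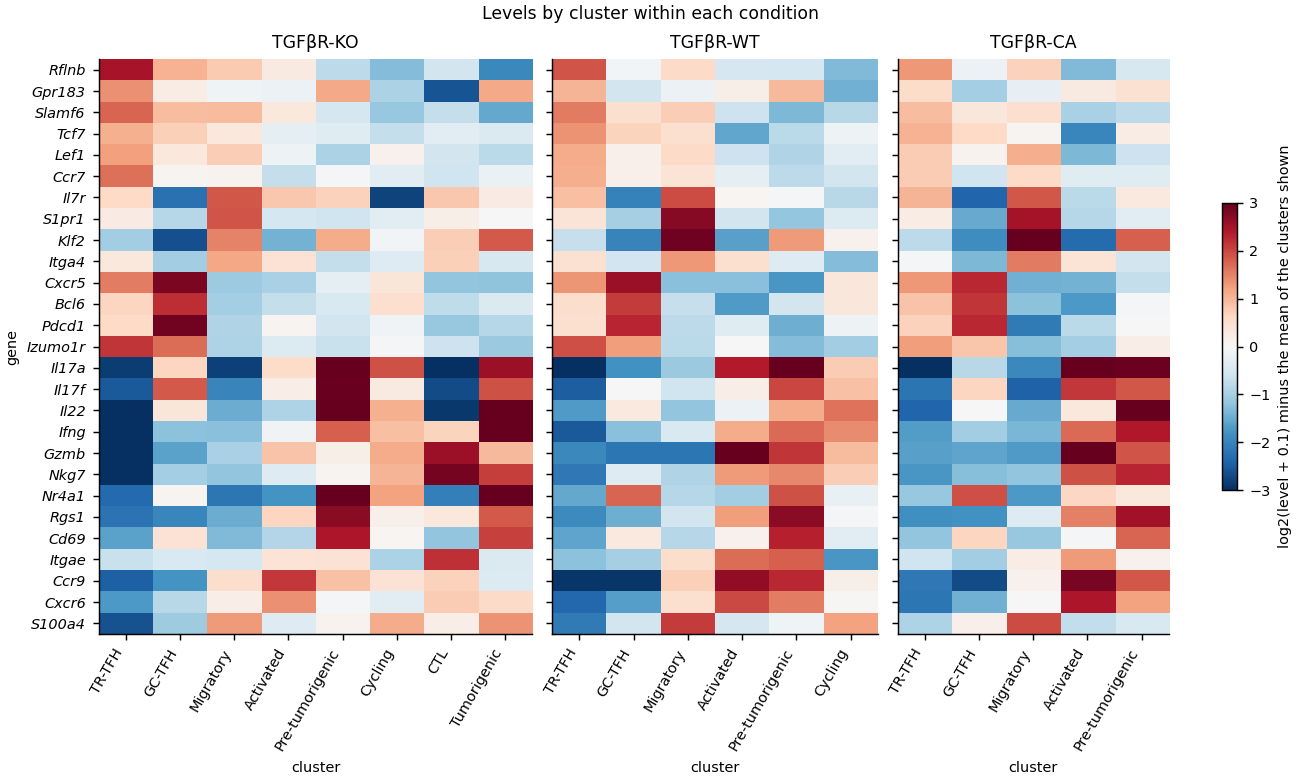
Levels of 27 genes by cluster within each condition, as log2(level + 0.1) minus the mean of the clusters shown, where clusters with fewer than 20 cells are left out. In each panel the column of TR-TFH cells is high in Rflnb, Slamf6, Tcf7 and Ccr7, intermediate in Cxcr5, Bcl6 and Pdcd1 next to the GC-TFH column, and low in Il17a, Ifng, Gzmb and Ccr9.

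TFH genes were detected together in few cells. At least 1 of Cxcr5, Bcl6 and Pdcd1 was detected in 43.0% of TR-TFH cells of KO (exact 95% interval 38.7–47.4%) 56.1% of WT (51.4–60.7%) and 66.7% of CA (62.6–70.6%). The shares were 74.8%, 84.4% and 91.3% of GC-TFH cells and 10.95%, 20.2% and 17.3% of migratory cells, so that TR-TFH cells lay between them in each condition. All of the 3 were detected in 1.35%, 3.91% and 4.32% of TR-TFH cells, against 18.2%, 23.6% and 25.1% of GC-TFH cells. They were detected together in 0 of 831, 0 of 89 and 0 of 52 migratory cells, with exact upper bounds of 0.443%, 4.06% and 6.85%, and depth limits how often 3 weakly expressed genes are seen together.

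TR-TFH cells also varied among themselves. Cells with an Il7r UMI, 257 of 519 in KO, 174 of 327 and 80 of 133 in the WT sets and 255 of 556 in CA, were set against those without, a split chosen after seeing the data. Id2, encoding an inhibitor of E proteins that opposes TFH differentiation, was at 7.46, 7.66, 5.17 and 3.27 in cells with Il7r and at 3.81, 3.28, 1.96 and 1.19 in cells without. Cxcr5 went the other way, at 0.405, 0.700, 1.08 and 0.830 in cells with Il7r against 0.828, 1.14, 1.503 and 1.47. In all 4 sets cells with Il7r thus held more Id2 and less Cxcr5, at median corrected UMIs per cell of 3246 to 3821 against 3393 to 4138. The first principal component among TR-TFH cells had Il7r at 1 end in all 4 sets, but it followed the number of genes detected per cell (r from -0.885 to -0.953 across the cells of a set), so it is not described further.

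Finally, the TR-TFH cells of the conditions were set side by side. By a ratio of 1.5 against both WT sets, 53 genes were higher in KO TR-TFH cells (0.708%) and 253 lower (3.38%), while 47 were higher in CA (0.628%) and 92 lower (1.23%). The WT sets differed from each other by that ratio in 1399 of the 7490 genes, so these counts have to be read beside a wide spread, and against the larger WT set alone 110 genes were higher in KO and 455 lower. Of the 35 genes called higher in TR-TFH cells, 0 were higher in KO and 5 were lower (Actn1, Aff3, Dck, H2-Q2 and St8sia1). In CA, 0 were higher and Evl was lower. Of the 263 genes called lower in TR-TFH cells, 19 were higher in KO and 16 lower, while 2 were higher in CA and 8 lower.

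The leading genes here were taken by size after the values were seen. Ly6a, an interferon-induced surface protein, was at 4.81 in KO against 0.615 in the larger WT set, 1.22 in the smaller WT set and 0.275 in CA. Cxcr3, the receptor for interferon-induced chemokines on Th1 cells, was at 0.768 against 0.151, 0.131 and 0.252, and Ccl5 at 0.617 against 0.143, 0.0187 and 0.00915. The KO levels of these genes lay above those of the other sets. Ly6a and Ccl5 were also among the genes called lower in TR-TFH cells, so the other clusters of KO held more of both. Whether the difference was particular to TR-TFH cells was not tested. Among those lower in KO, Lag3, an inhibitory receptor, was at 0.700 against 2.91, 3.57 and 2.67, and Nt5e, which encodes the ecto-5′-nucleotidase CD73, at 0.617 against 2.43, 2.15 and 2.43. In CA the leading genes were Gm42418, at 490 against 55.5 in KO, 37.7 in the larger WT set and 45.9 in the smaller, and AY036118, at 87.0 against 6.33, 5.64 and 0.935. Both are transcripts that overlap ribosomal RNA, and in CA they were as high in the other clusters, at 476 and 84.6.

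Among the TFH and residency genes, Icos, the costimulatory receptor of TFH cells, was at 1.98 in KO TR-TFH cells against 4.33 and 6.43 in the WT sets and 5.15 in CA. Pdcd1 was at 0.809 in KO, 1.09 and 1.87 in the WT sets and 2.24 in CA, and Tcf7 at 1.62, 2.61, 2.24 and 3.40. For each the lowest value was in KO, but the WT sets themselves were apart by a ratio of 1.47 for Icos and 1.66 for Pdcd1. The other clusters were lowest in KO as well, with Pdcd1 at 0.817 in KO, 2.12 in pooled WT and 3.83 in CA, and Tcf7 at 0.765, 0.989 and 1.71. Smad7, an inhibitor of TGFβ signaling that the pathway itself induces, was at 0.176 in KO against 0.401 and 0.823 in the WT sets and 0.513 in CA, and Klf2 at 1.75 in KO against 0.757, 0.411 and 0.407. Klf2 was highest in KO in the other clusters too, at 7.46 against 2.37 in pooled WT and 1.32 in CA.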

How the data were processed

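YFP+CD4+ T cells from KO, WT and CA mice were profiled by droplet-based 3′ scRNA-seq. The submitters' processing notes name Cell Ranger 3.1.0, Seurat and the mm10 build. According to the methods, the authors normalized counts with SCTransform, integrated both runs, assigned clusters, and took out epithelial and γδ T cells. The deposited values are natural log values of corrected UMI counts plus 1, with 1 cluster name per cell, and a test for raw counts could therefore not be used. The log was undone, and corrected UMIs were summed over the cells of a group. Genes with the greatest ratio in their least favourable condition were named, 20 per direction against all other clusters and 10 against GC-TFH or migratory cells, as were the given markers and members of gene lists. The cluster, members and lists were chosen with earlier results of these data known. Other thresholds, added constants, scalings, references and sets of cells were tried. Scrublet called 43 of 5080 cells doublets, but under 0.5% in KO and in the larger WT set, where it did not work. Cells were mapped to conditions by their names. Analyses used Python 3.11.15, numpy 2.4.6, scipy 1.17.1, pandas 2.3.3, scikit-learn 1.9.0 and scanpy 1.11.5, with matplotlib 3.10.9 for plots.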

Additional observations from a re-analysis of the deposited data

Results flagged for a closer look

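For 2 genes the ratio of TR-TFH cells to the other clusters was at least 1.5 in 1 condition and, in another, lower by at least that ratio, with both WT sets on the same side, and in neither case was the difference tested, with 1 sample of KO and of CA. Atp1b1, a subunit of the sodium pump, had a ratio of 1.81 in KO, 1.24 in WT and 0.618 in CA, from TR-TFH levels of 0.176, 0.278 and 0.265 per 10000 against 0.0523, 0.204 and 0.491. Serpinb9, an inhibitor of granzyme B, had a ratio of 0.556 in KO, 1.51 in WT and 1.29 in CA, from 0.228, 0.211 and 0.165 against 0.490, 0.107 and 0.105. For both genes the levels of the other clusters moved more between conditions than those of TR-TFH cells did, and the clusters that make up these others differed in size between conditions.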

How the results depend on the processing

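Counts of genes depended on the settings, given here as higher and lower than the other clusters, than GC-TFH and than migratory cells, where the reported counts were 35 and 263, 55 and 267, and 106 and 215. With at least 1000 corrected UMIs they were 16 and 135 for the other clusters, 122 lower than GC-TFH, and 54 and 125 for migratory cells. With 0.02 added they were 58 higher than the other clusters, 91 and 402 for GC-TFH and 169 higher than migratory cells, and with 0.5 added 12 and 87, 16 and 84, and 35 and 81. A ratio of 2 gave 5 and 105, 11 and 66, and 30 and 81. Differences of mean log values gave 92 and 173 for the other clusters and 102 higher than GC-TFH. Weighting the other clusters alike gave 57 higher. Of alternatives chosen after seeing the data, centring gave 62 higher than the other clusters and 104 and 165 for GC-TFH, levels outside ribosomal protein genes gave 61 and 96 higher, and the ratio in each WT set gave 36 and 173 for GC-TFH and 129 lower than migratory cells. The TR-TFH share of neighbors, 88.1% as the mean of conditions, was 84.5% without listed genes. Across conditions, genes higher and lower in KO and then in CA were 110, 455, 235 and 385 against the larger WT set alone, 448, 1304, 365 and 780 against the smaller, and 102, 544, 110 and 295 against pooled WT, the last chosen after seeing the data. Beyond stricter or looser thresholds, the cause was not tested. Among single genes 187 values stayed within the spread and 23 moved, and 1, Il7r in KO, changed sign, from -0.45 to 0.03 with the other clusters weighted alike. Many of the values that stayed could not have moved. Another minimum or a ratio of 2 leaves the ratio of a single gene as it was, and leaving out a WT set does so in KO and CA. The number that stayed is therefore no measure of robustness. Gpr183 in WT was at 0.17 on the log2 scale without the larger WT set. No paired analysis was possible because WT cells could not be assigned to the 2 WT samples and no test was made. With 1 sample of KO and of CA, differences between mice, runs and conditions cannot be told apart, and corrected UMIs have lost the original depth.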
